A study of Arabidopsis thaliana with 12 samples.

Results

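The beta-glucosidase genes described here are 10 of the 22 Arabidopsis thaliana BGLU genes that had an ATH1 probe set naming a single gene, out of 22746 probe sets for genes on the array. RefSeq names 47 BGLU genes. The rest of them had no such probe set in the annotation used, which left 8730 probe sets unnamed. Their absence here therefore does not show that the array lacks them. BGLU27 (AT3G60120) and BGLU28 (AT2G44460) were included by name. The other 8 were the BGLU genes with the highest mean over the 12 arrays among those that reached log2 4 in at least 3 arrays, namely PYK10 (BGLU23, AT3G09260), BGLU44 (AT3G18080), BGLU16 (AT3G60130), BGLU46 (AT1G61820), BGLU25 (AT3G03640), BGLU15 (AT2G44450), BGLU42 (AT5G36890) and BGLU33 (AT2G32860). These 8 were at log2 4 or above on all 12 arrays, BGLU28 on 8 arrays and BGLU27 on 6, which were the 6 arrays of seedlings given DFPM. The last gene inside the rule, BGLU33, had a mean of 6.36, and the first outside it, BGLU24 (AT5G28510), had a mean of 6.14.

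Beta-glucosidases of this plant family remove glucose from small conjugates, and so release hormones, defence compounds, coumarins, flavonols or lignin precursors that plants store in glucosylated form. Some members are kept apart from their substrates, as PYK10 is in the endoplasmic reticulum (ER) bodies of roots, and meet them when tissue is damaged. BGLU28 is known from sulfur-starved plants, where with its relative BGLU30 (DIN2) it takes part in the breakdown of glucosinolates, and BGLU33 is known as a vacuolar enzyme that frees abscisic acid (ABA) from its glucose ester.

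RNA came from whole 12-day-old Col-0 seedlings grown on plates, and the comparison asks how a synthetic compound, DFPM, acts with and without the stress hormone ABA. DFPM, by its name a methanethione that joins a dichlorophenyl furan to a piperidine, has been described as an antagonist of ABA responses. There were 3 arrays in each of 4 groups. ABA+DFPM seedlings were treated with 10 µM ABA and 30 µM DFPM for 6 h, with DFPM given 30 min ahead, DFPM seedlings with 30 µM DFPM for 6 h, and ABA seedlings with 10 µM ABA for 6 h. Control seedlings were in water with DMSO diluted 1:5000, with no time in the labels. Whether the arrays within a group stem from separate cultures is not in the labels, and p-values therefore measure the spread between these arrays, which may be technical.

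Levels are deposited log2 values made with GCRMA, and a level under log2 4 is close to the background that this method sets. Within each group, arrays 1 and 2 correlated at 0.9865 to 0.9916 over the 14401 probe sets that reached log2 4 in at least 3 arrays. Array 3 correlated with them at 0.875 to 0.920, so the array numbered 3 stood apart in every group. The deviations of same-numbered arrays from their group means were correlated in all 18 pairs (r from 0.426 to 0.802), and changes of the genes described are given also with the array number as a block where that changes their call. The control probe sets for ubiquitin were brighter at the 3′ than at the 5′ end by 0.73 to 0.97 in ABA+DFPM, 1.04 to 1.25 in DFPM, 0.61 to 0.82 in ABA and 1.03 to 1.29 in control arrays (log2). The same difference for actin was 4.27 to 4.68 in ABA+DFPM, 4.86 to 5.05 in DFPM, 4.56 to 4.63 in ABA and 4.86 to 5.30 in control arrays. It was thus lower with ABA for both, whereas GAPDH, at 0.91 to 1.32 over all arrays, did not follow that order, and the part of RNA quality in the results was not tested. Changes are log2 differences ± SE from limma, fitted over 14401 probe sets, and a gene is said to have risen or fallen only at a Benjamini-Hochberg adjusted p under 0.05 over all of them. Centring each array on its median would move the median change of all probe sets to 0.09, against -0.08 here, for DFPM against control, to 0.12 against -0.09 for ABA+DFPM against ABA, and to 0.23 against -0.06 for ABA+DFPM against control.

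DFPM raised BGLU27 and BGLU46 and lowered BGLU44 and BGLU33, both in the absence and in the presence of ABA. In its presence the calls of BGLU46, BGLU44 and BGLU33 were lost without the filter on low levels (adjusted p = 0.0611, 0.0603 and 0.0687). Fits of only the groups compared lost these calls as well (0.0827, 0.0766 and 0.0926). The BGLU33 call in the absence of ABA was also lost in both settings (0.0843 and 0.0536). Against control, 4 of the 10 genes passed in DFPM seedlings, 2 higher and 2 lower, where 24.0% of all probe sets passed (12.7% higher, 11.4% lower). Against ABA, 4 of the 10 passed in ABA+DFPM seedlings, again with BGLU27 and BGLU46 higher and BGLU44 and BGLU33 lower, where 12.6% of all probe sets passed (6.64% higher, 5.96% lower). ABA alone raised BGLU16, which was the 1 gene of the 10 to pass against control, where 28.9% of all probe sets passed (14.6% higher, 14.3% lower). With DFPM present throughout, ABA raised BGLU16 and BGLU27, so that 2 of 10 passed in ABA+DFPM against DFPM, where 14.2% of all probe sets passed (8.04% higher, 6.19% lower). In ABA+DFPM against control 7 of 10 passed, 3 higher (BGLU27, BGLU46 and BGLU16) and 4 lower (BGLU44, BGLU33, PYK10 and BGLU42), where 47.4% of all probe sets passed (22.0% higher, 25.4% lower). BGLU27 was included by name and passed the level filter only through arrays with DFPM. Its rise with DFPM in these counts is therefore no support for a response of the 10 genes. The median change over the 10 genes was 0.19 for DFPM against control, -0.45 for ABA+DFPM against ABA, 0.19 for ABA against control and -0.14 for ABA+DFPM against DFPM, beside -0.08, -0.09, -0.09 and -0.09 over all probe sets. With the array number as a block, 7 of 10 passed for DFPM against control, 7 for ABA+DFPM against ABA, 5 for ABA against control, 3 for ABA+DFPM against DFPM and 8 for ABA+DFPM against control, where 47.4%, 31.2%, 48.5%, 35.2% and 64.2% of all probe sets passed.

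**Figure D1:**
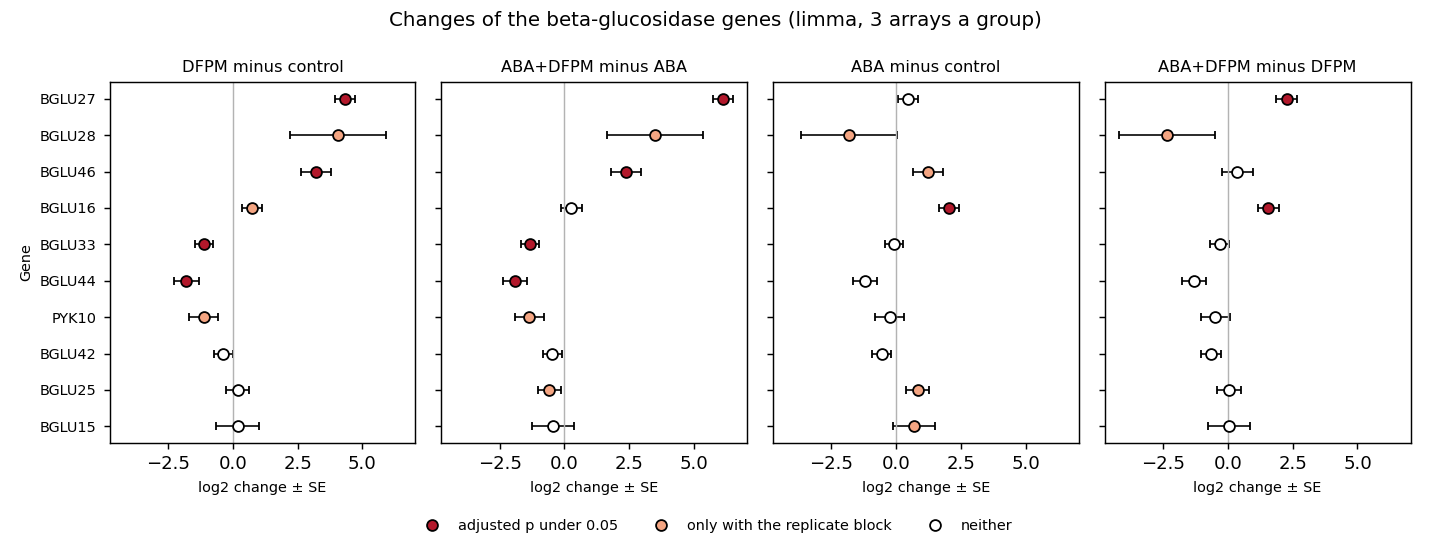
Log2 change ± SE (limma, 3 arrays a group) of the 10 genes in 4 comparisons, with dark points for an adjusted p under 0.05, light points for genes that passed only with the array number as a block, and open points for the rest. BGLU27 and BGLU46 lie right of 0 and BGLU44 and BGLU33 left of it in both DFPM comparisons, and the SE of BGLU28 (1.85) is the widest of the 10.

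BGLU27 had levels of 9.24, 8.92 and 8.81 on ABA+DFPM arrays 1 to 3 and 6.26, 6.12 and 7.80 on DFPM arrays. It had 2.78, 3.07 and 2.78 on ABA arrays and 2.76, 2.33 and 2.14 on control arrays. All 6 arrays with DFPM lay above all 6 without it, and all 3 ABA+DFPM arrays lay above the 3 DFPM arrays. The change was 6.12 ± 0.39 for ABA+DFPM against ABA (adjusted p = 2.91e-05), 4.32 ± 0.39 for DFPM against control (adjusted p = 1.31e-04) and 6.58 ± 0.39 for ABA+DFPM against control (adjusted p = 2.78e-06). Since the ABA and control levels were close to background, their folds depend on where GCRMA places it. Counted from log2 4 instead, the ABA+DFPM mean was 31.8-fold and the DFPM mean 6.63-fold above that level.

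ABA left BGLU27 close to background when given alone, at 2.88 ± 0.17 in ABA against 2.41 ± 0.32 in control arrays (SD, n = 3 each), a change of 0.46 ± 0.39 (adjusted p = 0.413). Given with DFPM, it raised the gene to 8.99 ± 0.22 in ABA+DFPM arrays, against 6.73 ± 0.93 in DFPM arrays, a change of 2.26 ± 0.39 (adjusted p = 0.00474). That call was lost when the fit held only these groups (adjusted p = 0.0557). The levels thus ran from ABA+DFPM through DFPM to ABA and control. Of neighbours in that order ABA and control did not pass, and DFPM and ABA were not tested against each other and did not overlap. The difference between the ABA effects with and without DFPM was 1.80 ± 0.55, with a p of 0.00863 before adjustment and an adjusted p of 0.362, or 0.188 with the block. It passed without DFPM array 3, the highest of its group (2.33, adjusted p = 0.0151), and on arrays 1 and 2 alone (2.51, adjusted p = 0.00371). Since the ABA and control arrays were close to background, an ABA effect without DFPM could hardly be measured. These values therefore do not show that the ABA effect on BGLU27 differed.

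BGLU28, the gene of sulfur-starved plants, had levels of 5.47, 5.54 and 9.56 on ABA+DFPM arrays and 8.54, 7.28 and 11.84 on DFPM arrays. It had 2.32, 2.51 and 5.27 on ABA arrays and 3.53, 2.80 and 9.18 on control arrays. The array numbered 3 was the highest of every group, and the DFPM and control arrays overlapped through control array 3. Within each array number DFPM exceeded control by 5.01, 4.47 and 2.66, and ABA+DFPM exceeded ABA by 3.15, 3.02 and 4.28.

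Fitted without the array number, no change of BGLU28 passed, and each had an SE of 1.85. DFPM against control gave 4.05 (adjusted p = 0.138, with the block 8.02e-04) and ABA+DFPM against ABA gave 3.49 (adjusted p = 0.258, with the block 0.00259). Against DFPM, ABA+DFPM gave -2.37 (adjusted p = 0.433, with the block 0.0136), and ABA against control gave -1.80 (adjusted p = 0.51, with the block 0.0283). ABA+DFPM against control gave 1.68 (adjusted p = 0.478, with the block 0.0285). With the block the SE was 0.57, and all 5 pairwise changes of BGLU28 then passed. The fall in ABA against control rested on the arrays numbered 3. Its differences within array numbers were -1.21, -0.29 and -3.91, arrays 1 and 2 of both groups were under log2 4, and on those arrays alone the change of BGLU28 was -0.75 (adjusted p = 0.148). ABA+DFPM lay below DFPM by 3.07, 1.74 and 2.28 within array numbers, and on arrays 1 and 2 alone that change passed (-2.41, adjusted p = 0.00221). Without control array 3 the DFPM change became 6.05 and passed (adjusted p = 0.0267), and on arrays 1 and 2 alone it was 4.74 (adjusted p = 1.19e-04). Since control and ABA arrays 1 and 2 were under log2 4, the sizes of changes against those groups depend on where GCRMA places background. The group means fell in the order DFPM, ABA+DFPM, control and ABA, and without the block no neighbours in that order differed beyond their spread. The difference between the ABA effects with and without DFPM was -0.56 ± 2.62 (adjusted p = 1).

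**Figure D2:**
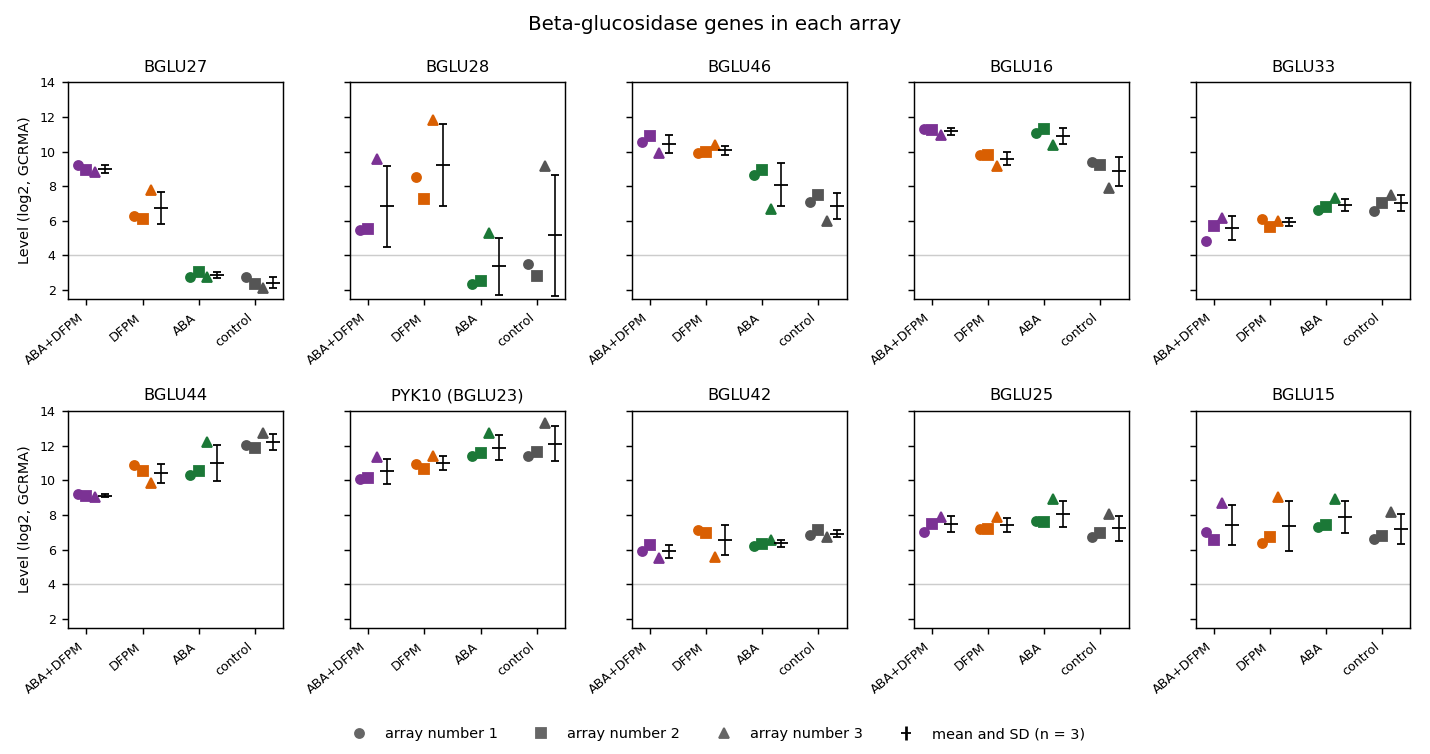
Level (log2, GCRMA) of the 10 genes on each array, with a circle, square or triangle for array number 1, 2 or 3, black bars for the group mean and SD (n = 3), and a grey line at log2 4. BGLU27 is under the grey line on all ABA and control arrays. For BGLU28, BGLU15, BGLU25 and PYK10 the triangle is the highest point of every group.

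Few other genes of glucosinolate and sulfur metabolism had a probe set of 1 gene. Of the 22 listed glucosinolate synthesis genes 3 were measured, of which 1 rose and 2 fell in DFPM against control (median -1.48). Of all probe sets 12.7% rose and 11.4% fell in that comparison. UGT74B1, which adds glucose to the glucosinolate core, rose by 1.81 ± 0.23 in DFPM against control (adjusted p = 6.48e-04) and by 2.15 ± 0.23 in ABA+DFPM against ABA (adjusted p = 3.99e-04). BCAT4, whose aminotransferase starts the methionine-derived branch, averaged 2.14 ± 0.01 in ABA+DFPM, 2.25 ± 0.10 in DFPM, 2.49 ± 0.34 in ABA and 7.51 ± 1.08 in control arrays (SD, n = 3 each), so that it was close to background with either compound. The third, AT2G31790, changed by -1.48 ± 0.26 in DFPM against control (adjusted p = 0.0037), and by -0.76 ± 0.26 in ABA+DFPM against ABA (adjusted p = 0.0869, with the block 0.0201). The 1 measured gene of the sulfur deficiency list, AT1G04770, gave 0.72 ± 0.97 in DFPM against control (adjusted p = 0.619, with the block 0.0115) and 0.55 ± 0.97 in ABA+DFPM against ABA (adjusted p = 0.75, with the block 0.046). Of the 19 genes of glucosinolate breakdown only PYK10 had such a probe set, and of the 12 genes induced by darkness or sugar starvation the 2 measured, MCCA and IVD, passed in no comparison without the block. With it MCCA rose in ABA against control (0.97, adjusted p = 0.00551) and in ABA+DFPM against DFPM (1.14, adjusted p = 0.00492), IVD rose in ABA against control (1.15, adjusted p = 0.0162), and both rose in ABA+DFPM against control (adjusted p = 0.00103 and 0.00328).

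BGLU46 encodes an enzyme that acts on the glucosides of lignin precursors. It had levels of 10.55, 10.90 and 9.90 on ABA+DFPM arrays and 9.90, 9.97 and 10.38 on DFPM arrays. It had 8.66, 8.96 and 6.65 on ABA arrays and 7.11, 7.47 and 6.00 on control arrays. All 6 arrays with DFPM lay above all 6 without it, while the groups with and without ABA overlapped. The gene rose 9.34-fold in DFPM against control (3.22 ± 0.58, adjusted p = 0.00414) and 5.15-fold in ABA+DFPM against ABA (2.36 ± 0.58, adjusted p = 0.0266). The second call was lost without ABA+DFPM array 1 or 2 (adjusted p 0.0697 and 0.0844), without the filter on low levels (0.0611) and when only these groups were fitted (0.0827). ABA gave 1.23 ± 0.58 against control (adjusted p = 0.144), which passed with the block (adjusted p = 0.0443) or without ABA array 3 (1.94, adjusted p = 0.0111), and 0.37 ± 0.58 in ABA+DFPM against DFPM (adjusted p = 0.728).

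The gene next to BGLU46, BGLU45 (AT1G61810), whose enzyme also acts on lignin precursor glucosides, ranked second among the genes left outside the rule, with a mean of 5.68. It had levels of 8.19, 8.10 and 8.13 on ABA+DFPM arrays, 5.38, 5.30 and 8.01 on DFPM arrays, 6.22, 6.70 and 3.90 on ABA arrays and 2.61, 3.50 and 2.17 on control arrays. All control arrays were under log2 4 and under every other array of the gene. It rose in DFPM against control (3.47, adjusted p = 0.0143) and in ABA against control (2.84, adjusted p = 0.0277), the ABA call being lost without ABA array 1 or 2 or control array 1 or 3 (adjusted p from 0.0729 to 0.104). Without the filter on low levels the ABA call was lost as well (0.0631). Whether transcripts of such close relatives bind each other's probes was not tested.

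Of the 8 genes of coumarins and lignin precursor glucosides above the level filter 2 rose and 1 fell in DFPM against control (median -0.32). In ABA+DFPM against ABA 2 rose and none fell (median 0.47). Of all probe sets 12.7% rose and 11.4% fell in the first comparison, and 6.64% rose and 5.96% fell in the second. With the block 3 rose and 3 fell in DFPM against control, and 3 rose and 1 fell in ABA+DFPM against ABA. In these fits 47.4% and 31.2% of all probe sets passed. Without the block the genes that rose in DFPM were BGLU45 and BGLU46, and the one that fell was UGT72E1, which adds glucose to lignin precursors (-1.72 ± 0.40, adjusted p = 0.0125, or 0.0551 when only these groups were fitted). UGT72E1 stood at 3.95 ± 0.07 in ABA+DFPM, 9.43 ± 0.86 in DFPM, 4.77 ± 0.51 in ABA and 11.15 ± 0.23 in control arrays (SD, n = 3 each), so that its lowest levels were those of seedlings given ABA. AT3G13610, a hydroxylase of scopoletin synthesis, fell in ABA against control (-4.95 ± 1.22, adjusted p = 0.0134), a call lost without ABA array 1 or 2 (0.0592 and 0.0555). From that lowered level it rose by 5.98 ± 1.22 in ABA+DFPM against ABA (adjusted p = 0.0118). This call was lost without ABA array 1 or 2 (0.0501 and 0.0509) or in a fit of only these groups (0.0531). ABA+DFPM against control gave 1.03 ± 1.22 (adjusted p = 0.511, with the block 0.0767). AT3G13610 gave 2.94 ± 1.22 in DFPM against control (adjusted p = 0.105, with the block 0.00126) and -1.92 ± 1.22 in ABA+DFPM against DFPM (adjusted p = 0.324, with the block 0.0129). BGLU42, known for the release of coumarins by roots and for resistance induced by root bacteria, had group means of 5.90 ± 0.38 in ABA+DFPM, 6.56 ± 0.86 in DFPM, 6.36 ± 0.19 in ABA and 6.92 ± 0.21 in control arrays (SD, n = 3 each). It passed only in ABA+DFPM against control (-1.02 ± 0.38, adjusted p = 0.0467), and that call was lost without any 1 of the ABA+DFPM, ABA or control arrays (adjusted p from 0.0502 to 0.138) and after either renormalization (0.0637 and 0.118). Without the filter on low levels the call was lost as well (0.085).

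PYK10, the main protein of root ER bodies, had levels of 10.08, 10.14 and 11.38 on ABA+DFPM arrays and 10.98, 10.65 and 11.41 on DFPM arrays. It had 11.39, 11.56 and 12.72 on ABA arrays and 11.42, 11.67 and 13.31 on control arrays. The ABA+DFPM arrays lay below the ABA arrays, and the DFPM arrays below the control arrays, but both gaps were narrow. The highest ABA+DFPM array (11.38) came close to the lowest ABA array (11.39). The highest DFPM array (11.41) came within rounding of the lowest control array (11.42). PYK10 fell in ABA+DFPM against control (-1.60 ± 0.56, 3.03-fold lower, adjusted p = 0.0382). That call was lost without ABA+DFPM array 1 or 2, DFPM array 1 or control array 3 (adjusted p from 0.0522 to 0.121) and with the array medians centred (0.062). It was also lost without the filter on low levels (0.0799) and when only these groups were fitted (0.0826). DFPM against control gave -1.12 ± 0.56 (adjusted p = 0.171, with the block 0.0052) and ABA+DFPM against ABA gave -1.36 ± 0.56 (adjusted p = 0.149, with the block 0.0034), while ABA against control gave -0.24 ± 0.56 (adjusted p = 0.783).

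Of the 5 ER body genes above the level filter, PYK10 included, none rose and 2 fell in each DFPM comparison. Medians were -1.12 for DFPM against control and -1.36 for ABA+DFPM against ABA, where 11.4% and 5.96% of all probe sets fell. With the block 4 of the 5 fell in each of these comparisons, PYK10 and NAI2 being the further genes, where 3813 and 2532 of all 14401 probe sets fell. The genes that fell without it were the jacalin-related lectin genes JAL22 (-2.21 ± 0.39, adjusted p = 0.00372, and -2.77 ± 0.39, adjusted p = 0.00196) and JAL33 (-1.73 ± 0.38, adjusted p = 0.00959, or 0.0572 when only these groups were fitted, and -1.62 ± 0.38, adjusted p = 0.0201). The second JAL33 call was lost without ABA+DFPM array 1 or 2 or ABA array 2 or 3 (adjusted p from 0.0565 to 0.0655). NAI2, a component of ER bodies, fell in ABA+DFPM against control (-2.04 ± 0.42, adjusted p = 0.00341). With the block it fell in all 5 pairwise comparisons, among them DFPM against control (-0.94, adjusted p = 0.00403, without the block 0.133), ABA+DFPM against ABA (-0.96, adjusted p = 0.00581, without the block 0.175), ABA against control (-1.08, adjusted p = 0.0018, without the block 0.0837) and ABA+DFPM against DFPM (-1.10, adjusted p = 0.00328, without the block 0.114). NAI1, the transcription factor needed for these bodies, passed in no comparison with or without the block.

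The root marker EXPA18, a root hair expansin, also fell in DFPM against control (-1.17 ± 0.35, adjusted p = 0.0348) and in ABA+DFPM against ABA (-1.29 ± 0.35, adjusted p = 0.0374). The first call was lost without DFPM array 1 or 2, ABA array 1 or control array 2 or 3 (adjusted p from 0.0509 to 0.0996), and the second without ABA+DFPM array 2 or 3, DFPM array 1 or 2, any ABA array or control array 2 (adjusted p from 0.0509 to 0.115). Both EXPA18 calls were also lost after either renormalization (adjusted p from 0.0625 to 0.0847) and without the filter on low levels (0.0635 and 0.0693). Fits of only the groups compared lost both as well (0.0608 and 0.077), and arrays 1 and 2 alone lost the second (0.0549). The other root hair marker, EXPA7, gave -0.74 ± 0.55 in DFPM against control (adjusted p = 0.351, with the block 0.05 and under the threshold), -1.11 ± 0.55 in ABA+DFPM against ABA (adjusted p = 0.226, with the block 0.0155) and -1.09 ± 0.55 in ABA+DFPM against control (adjusted p = 0.127, with the block 0.00665). With the block all 3 measured root markers (EXPA7, EXPA18 and PYK10) fell in both DFPM comparisons, where 3813 and 2532 of all 14401 probe sets fell. The summed linear level of the root hair markers EXPA7 and EXPA18 was 36 to 115 in ABA+DFPM, 81 to 116 in DFPM, 125 to 188 in ABA and 168 to 196 in control arrays. Of the 5 root markers 3 were measured, PYK10 among them, and the part of root tissue in the PYK10 and ER body values was not tested. Fewer root cells and less RNA per cell cannot be told apart in whole seedlings. The 2 measured mesophyll markers, LHCB4.1 and RCA, summed to 1381 to 9098 in ABA+DFPM, 1472 to 11898 in DFPM, 8393 to 14697 in ABA and 15899 to 22779 in control arrays, and of these RCA fell in ABA+DFPM against control (-2.83 ± 0.93, adjusted p = 0.0292, lost without ABA+DFPM array 3 or any control array at 0.0552 to 0.0842). With the block RCA fell also in DFPM against control (-2.07, adjusted p = 0.021, without the block 0.132) and in ABA+DFPM against ABA (-1.95, adjusted p = 0.0384, without the block 0.209). LHCB4.1 then fell in DFPM against control (-1.59, adjusted p = 0.0156, without the block 0.191) and in ABA+DFPM against control (-1.58, adjusted p = 0.0107, without the block 0.145). The part of mesophyll tissue in the changes of the BGLU genes with DFPM was not tested. The 2 measured guard cell markers, FMA, which is also the 1 measured myrosin cell marker, and AT1G22690, passed in no comparison without the block. With it FMA fell in ABA (adjusted p = 0.0443) and ABA+DFPM (0.0331), and AT1G22690 in DFPM (7.54e-04) and ABA+DFPM (0.00221), all against control.

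**Figure D3:**
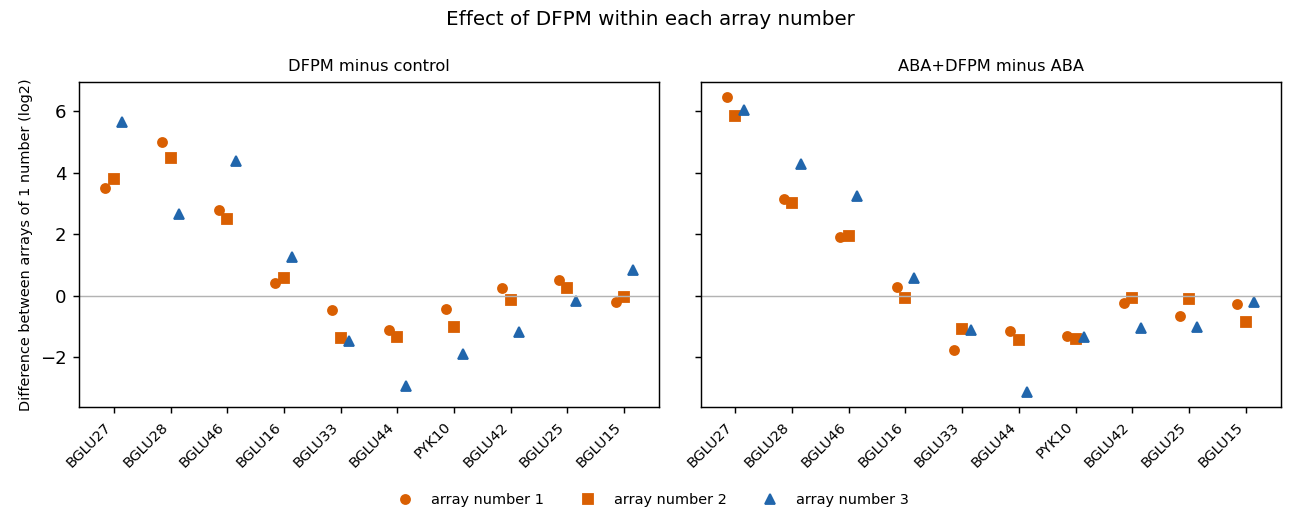
Difference between arrays of the same number (log2) for the 10 genes, DFPM minus control on the left and ABA+DFPM minus ABA on the right, with circles, squares and triangles for array numbers 1, 2 and 3. BGLU27, BGLU28 and BGLU46 are above 0 and BGLU33, BGLU44 and PYK10 below 0 at all 3 numbers in both panels, and the triangle is the extreme point for BGLU46 and BGLU44.

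BGLU33, the vacuolar enzyme that releases ABA from its glucose ester, had levels of 4.86, 5.73 and 6.19 on ABA+DFPM arrays and 6.09, 5.64 and 6.01 on DFPM arrays. It had 6.64, 6.83 and 7.31 on ABA arrays and 6.57, 7.01 and 7.48 on control arrays. All 6 arrays with DFPM lay below all 6 without it, and the groups with and without ABA overlapped. BGLU33 fell 2.15-fold in DFPM against control (-1.10 ± 0.36, adjusted p = 0.0473) and 2.52-fold in ABA+DFPM against ABA (-1.33 ± 0.36, adjusted p = 0.0364). ABA gave -0.09 ± 0.36 against control (adjusted p = 0.874) and -0.32 ± 0.36 in ABA+DFPM against DFPM (adjusted p = 0.594). The DFPM call was lost when any of 8 single arrays was left out (ABA+DFPM array 2, any DFPM array, ABA array 1 or 2, control array 2 or 3, adjusted p from 0.0613 to 0.128). It was also lost without the filter on low levels (0.0843), with the array medians centred (0.0559) and when only these groups were fitted (0.0536). The call against ABA was likewise lost without ABA+DFPM array 1 or 2, DFPM array 1, any ABA array or control array 2 (adjusted p from 0.0529 to 0.109). It was lost as well without the filter on low levels (0.0687) and when only these groups were fitted (0.0926). Both calls passed with the block (adjusted p = 0.00728 and 0.00492).

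Of the 4 genes of the ABA glucose ester list above the level filter, BGLU33 included, 2 rose and 1 fell in DFPM against control and in ABA+DFPM against ABA, with medians of 0.39 and 0.42. Of all probe sets 12.7% rose and 11.4% fell in the first comparison, and 6.64% rose and 5.96% fell in the second. UGT71B6, a glucosyltransferase that makes the ester, rose by 1.94 ± 0.35 in DFPM against control (adjusted p = 0.00407) and by 1.501 ± 0.35 in ABA+DFPM against ABA (adjusted p = 0.021), the second call being lost without ABA+DFPM array 1 or 3 (0.0542 and 0.065). UGT71C5, another such enzyme, fell by 1.61 ± 0.22 in ABA against control (adjusted p = 4.75e-04) and by 1.47 ± 0.22 in ABA+DFPM against DFPM (adjusted p = 0.0019). With DFPM it rose by 0.67 ± 0.22 against control (adjusted p = 0.0485), a call lost without any 1 of 11 arrays. AT3G21790 rose by 1.95 ± 0.51 in ABA against control (adjusted p = 0.0174), a call lost without ABA array 1 or 2 (0.0676 and 0.0631), and gave 0.12 ± 0.51 in DFPM against control (adjusted p = 0.888).

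BGLU44 encodes an enzyme that can split mannosides. It had levels of 9.20, 9.10 and 9.06 on ABA+DFPM arrays and 10.92, 10.54 and 9.84 on DFPM arrays. It had 10.34, 10.53 and 12.20 on ABA arrays and 12.03, 11.87 and 12.77 on control arrays. The ABA+DFPM arrays lay below all others and the DFPM arrays below the control arrays, while ABA and control overlapped through ABA array 3. BGLU44 fell 8.58-fold in ABA+DFPM against control (-3.10 ± 0.47, adjusted p = 6.18e-04), 3.46-fold in DFPM against control (-1.79 ± 0.47, adjusted p = 0.0221) and 3.74-fold in ABA+DFPM against ABA (-1.90 ± 0.47, adjusted p = 0.0275). The DFPM call was lost without DFPM array 3 or control array 3 (adjusted p = 0.0771 and 0.0637), and the call against ABA without any 1 of the ABA+DFPM arrays (adjusted p from 0.0621 to 0.0713). The call against ABA was also lost without the filter on low levels (0.0603) and when only these groups were fitted (0.0766). ABA gave -1.20 ± 0.47 against control (adjusted p = 0.0841) and -1.31 ± 0.47 in ABA+DFPM against DFPM (adjusted p = 0.094). Without ABA array 3 both passed (-1.79, adjusted p = 0.0057, and -1.31, adjusted p = 0.0248). The group means increased in the order ABA+DFPM, DFPM, ABA and control. Of neighbours in that order, neither ABA+DFPM and DFPM nor ABA and control passed, and DFPM was not tested against ABA. BGLU43, the gene beside BGLU44, stayed between 2.14 and 2.78 on all arrays.

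BGLU16, for which no role is stated here, lies between BGLU27 and DIN2 in the order of genes. It had levels of 11.33, 11.22 and 10.93 on ABA+DFPM arrays and 9.81, 9.82 and 9.17 on DFPM arrays. It had 11.05, 11.29 and 10.35 on ABA arrays and 9.41, 9.23 and 7.92 on control arrays. Every array with ABA lay above every array without it, and the array numbered 3 was the lowest of each group. ABA raised BGLU16 4.13-fold against control (2.05 ± 0.40, adjusted p = 0.00412) and 2.96-fold in ABA+DFPM against DFPM (1.56 ± 0.40, adjusted p = 0.0281), the second call being lost without ABA+DFPM array 1 or 2 or any DFPM array (adjusted p from 0.0652 to 0.103). The second call was also lost without the filter on low levels (0.0575). DFPM gave 0.75 ± 0.40 against control (adjusted p = 0.195, with the block 0.0205) and 0.26 ± 0.40 in ABA+DFPM against ABA (adjusted p = 0.707). Its neighbour BGLU27 gave 0.46 ± 0.39 with ABA alone and 4.32 ± 0.39 with DFPM alone.

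BGLU25, with no role stated here, and BGLU15, whose enzyme acts on flavonol glycosides, passed in no comparison without the block. BGLU25 ranged from 7.03 to 7.91 in ABA+DFPM, 7.20 to 7.89 in DFPM, 7.61 to 8.94 in ABA and 6.71 to 8.04 in control arrays. With the block it rose in ABA against control (0.83, adjusted p = 0.00774) and fell in ABA+DFPM against ABA (-0.59, adjusted p = 0.0488). BGLU15, which stands beside BGLU28, ranged from 6.54 to 8.71 in ABA+DFPM, 6.37 to 9.03 in DFPM, 7.29 to 8.93 in ABA and 6.59 to 8.19 in control arrays. In every group its highest array was number 3, as for BGLU28 but also for BGLU25 and PYK10. The DFPM change of BGLU15 was 0.19 ± 0.82 (adjusted p = 0.888), and with the block it rose in ABA against control (0.68, adjusted p = 0.0442). The gene on the other side of BGLU28, BGLU29, exceeded log2 4 on 1 array, an ABA+DFPM array at 4.104.

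**Figure D4:**
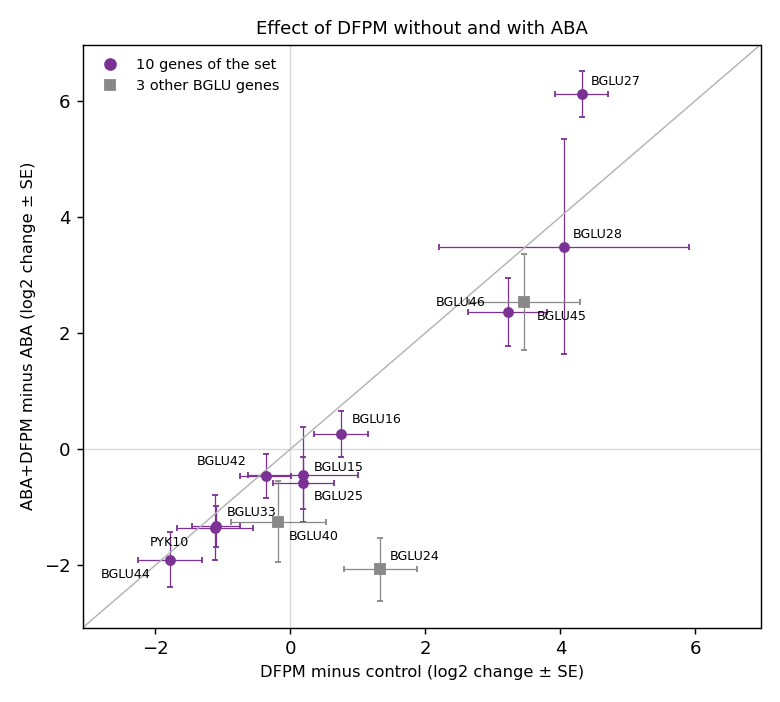
Log2 change ± SE with DFPM in the absence of ABA (DFPM minus control, horizontal) and in its presence (ABA+DFPM minus ABA, vertical), which share no arrays, for the 10 genes (circles) and 3 other BGLU genes (squares), with a diagonal of equal change. BGLU27 is at 4.32 and 6.12, BGLU46 at 3.22 and 2.36 and BGLU44 at -1.79 and -1.90, and BGLU24 is the point above 0 on one axis and at -2.07 on the other.

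The difference between the ABA effects with and without DFPM, which is also that between the DFPM effects with and without ABA, passed for none of the 10 genes with limma, where 0.375% of all probe sets passed. It had an unadjusted p under 0.05 for 1 of them, BGLU27, and for 936 of all 14401 probe sets. With the block none passed either, where 1.40% of all probe sets passed, and an unadjusted p under 0.05 was found for 2 of the 10 and for 1954 of all probe sets. The differences ranged from -0.86 ± 0.83 for BGLU46 to 1.80 ± 0.55 for BGLU27, and their median was -0.36, beside 0.00 over all probe sets. A p that misses the threshold does not show that the effects were alike, and for BGLU28 the SE of the difference was 2.62. For BGLU27, whose ABA and control arrays were close to background, the value does not show that the ABA effects differed.

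BGLU24, first outside the rule, had levels of 7.55, 7.18 and 9.22 on ABA+DFPM arrays, 3.05, 4.07 and 4.66 on DFPM arrays, 9.90, 9.62 and 10.65 on ABA arrays and 2.64, 2.64 and 2.50 on control arrays. No 2 of the 4 groups overlapped, and the control arrays were close to background. It rose in ABA against control (7.46 ± 0.54, adjusted p = 1.04e-05), the ABA mean being 66.6-fold above log2 4, and in ABA+DFPM against DFPM (4.06 ± 0.54, adjusted p = 0.00109). It fell in ABA+DFPM against ABA (-2.07 ± 0.54, adjusted p = 0.034), a call lost without ABA+DFPM array 1 or 2, DFPM array 2, any ABA array or control array 1 or 2 (adjusted p from 0.0506 to 0.107). That call was lost too without the filter on low levels (0.0739) and when only these groups were fitted (0.088). DFPM gave 1.33 ± 0.54 against control (adjusted p = 0.101, with the block 0.0236), and the difference between the ABA effects was -3.41 ± 0.77 (adjusted p = 0.13, with the block 0.0281).

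BGLU40 (AT1G26560) was the third gene outside the rule, at 2.76 to 5.67 in ABA+DFPM, 2.68 to 2.99 in DFPM, 4.55 to 6.56 in ABA and 2.91 to 2.99 in control arrays. It rose in ABA against control (2.83, adjusted p = 0.0143), a call lost without ABA array 1 or 2 (0.0595 and 0.0588). It gave 1.76 in ABA+DFPM against DFPM (adjusted p = 0.124, with the block 0.0336) and 1.58 in ABA+DFPM against control (adjusted p = 0.0895, with the block 0.0287). In ABA against control 4 of the 13 BGLU genes above the level filter passed, close to the 28.9% of all probe sets, and with the block 8 of 13 passed, beside 48.5% of all probe sets. The other 9 measured BGLU genes (BGLU19, BGLU20, BGLU29, BGLU31, BGLU32, BGLU36, BGLU41, BGLU43 and BGLU47) did not reach log2 4 in 3 arrays, and their highest value was 4.77, of BGLU31 on DFPM array 2. BGLU21 and BGLU22, which act on coumarin glucosides in roots, share 1 probe set and were not tested, with means of 11.01 in ABA+DFPM, 11.94 in DFPM, 11.67 in ABA and 12.17 in control arrays.

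**Figure D5:**
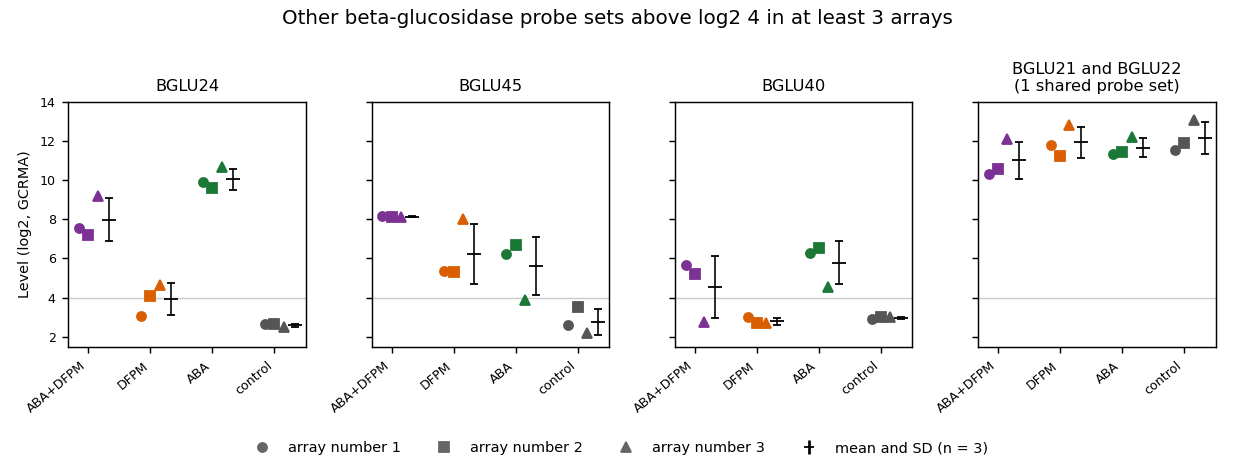
Level (log2, GCRMA) on each array of the 3 BGLU genes above the level filter but outside the 10, and of the probe set shared by BGLU21 and BGLU22, with symbols for array numbers 1 to 3, black bars for the group mean and SD (n = 3) and a grey line at log2 4. BGLU24 and BGLU40 are highest on ABA arrays, and BGLU45 is lowest on control arrays.

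Over the 12 arrays and 7705 kept probe sets of 1 gene, the levels most like those of BGLU27 were those of the glutamate receptor gene GLR2.8 (Pearson r = 0.982), AT5G16960 (0.9815), AT1G51860 (0.964), the defensin gene LCR67 (0.964) and AT5G65205 (0.962). Those most like BGLU28 were the calmodulin-like gene CML38 (0.974), the invertase gene cwINV6 (0.965), AT1G70000 (0.964), AT4G36430 (0.963) and AT5G08300 (0.960). The 12 arrays share the 4 groups and the array numbers, so these values describe likeness of pattern, and no test was made.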

How the data were processed

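RNA from whole seedlings was hybridised to 12 Affymetrix ATH1 arrays, 3 in each of 4 groups set by the sample titles. Per the submitters' processing notes, the authors made the deposited log2 values with GCRMA and the affy package, and the sources used here name no version of either. GCRMA subtracts a background, so levels near its floor of 2.14 carry little information on fold size. Array number limits the precision of each value, and no detection calls were used. The label of the DFPM group repeats a phrase on the order of DFPM and ABA, while its source names DFPM alone.

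After 64 control probe sets were left out, 14401 of 22746 probe sets reached log2 4 in at least 3 arrays and were kept. Names came from the platform table and RefSeq TAIR10.1 gene rows: 13513 probe sets named 1 gene (13436 found in RefSeq), 503 several, and 8730 none. limma 3.58.1 (R 4.3.3, statmod 1.5.0) fitted 4 group means with lmFit and eBayes, two-sided, with a Benjamini-Hochberg adjusted p under 0.05 per comparison. It was tested on simulated data. Titles number the arrays 1 to 3 in each group, and same-numbered arrays deviated together in all 18 pairs, so a fit with the number as a block is given for the genes described where it changes a call. The alternatives were this block, 2 changes of filter, quantile normalization, median centring, fits of only the groups compared, trend and robust settings, arrays 1 and 2 alone, and each array left out.

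The 10 genes and the gene lists were chosen with earlier results of these data known. All 10 are named, with every array for BGLU27, BGLU28 and genes that passed in at least 3 of 5 pairwise comparisons. Every other measured BGLU gene is named, up to 4 called genes of each list and comparison could be, and the 5 probe sets with the highest r to BGLU27 and to BGLU28 are. PYK10, BGLU24, BGLU45 and BGLU40 were given array by array or by range after their values were seen. Promoters and proteins were not analysed here. Figures were drawn with matplotlib 3.10.9, and tables were built in Python 3.11.15 using numpy 2.4.6 and pandas 2.3.3.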

Additional observations from a re-analysis of the deposited data

Results flagged for a closer look

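For BCAT4, the glucosinolate aminotransferase, the ABA change with DFPM minus the one without was fitted at 4.91 ± 0.61 and passed limma's test (adjusted p = 0.00679, with the block 0.0084). BCAT4 changed by -0.11 ± 0.43 in ABA+DFPM against DFPM (limma, adjusted p = 0.898) and by -5.02 ± 0.43 in ABA against control (adjusted p = 3.05e-05). BCAT4 averaged 2.14 in ABA+DFPM, 2.25 in DFPM, 2.49 in ABA and 7.51 in control arrays, against a floor of 2.14 in the deposited values. In DFPM arrays no further fall with ABA could be measured, so the value does not show that the ABA effect differed. Without the block none of the 13 BGLU genes above the level filter passed this test (2 had an unadjusted p under 0.05), and with it BGLU24 did. Groups of 3 arrays were not searched for outlying arrays.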

How the results depend on the processing

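Of 1190 alternative values for the 60 changes of the 10 genes, 57 lost a call, 35 gained one and none reversed a called change. The remaining 1098 kept their side of the threshold, 41 of them with a change of sign that was called under neither setting. The replicate block gave 5 genes called for ABA against control, 7 for DFPM against control and 7 for ABA+DFPM against ABA, ended no call among the 10 genes, and changed no call of theirs beyond those given beside the results. Arrays 1 and 2 alone gave 6, 7 and 7 called genes for ABA against control, DFPM against control and ABA+DFPM against DFPM, and 1 for the difference between ABA effects. Without the filter, and with only the groups compared, 1 gene was called for ABA+DFPM against ABA and 1 for ABA+DFPM against DFPM. The causes were not tested.

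With single arrays left out, 1 to 3 genes were called for ABA against control, 2 to 4 for DFPM against control, 1 to 4 for ABA+DFPM against ABA, 1 to 3 for ABA+DFPM against DFPM, 5 to 7 for ABA+DFPM against control and 0 to 1 for the difference between ABA effects. The count moved by over 1.5 times without ABA array 3 (ABA against control), without DFPM array 3 (DFPM against control and the difference), without ABA+DFPM array 1 or 2 (against ABA and against DFPM) and without DFPM array 1 or 2 (ABA+DFPM against DFPM). Over all probe sets the block called 6982, 6821, 4486 and 5069 for ABA against control, DFPM against control, ABA+DFPM against ABA and ABA+DFPM against DFPM, against 4165, 3463, 1814 and 2049 without it, and 202 against 54 for the difference. Arrays 1 and 2 alone called 8364, 7146, 5276 and 7364 in those 4 and 1251 for the difference. Fits of only the groups compared called 2250 for DFPM against control and 862 for ABA+DFPM against DFPM, and the stricter filter 30 for the difference. Single arrays left out gave 2402 to 4669 for ABA against control, 1981 to 4032 for DFPM against control, 904 to 2280 for ABA+DFPM against ABA, 806 to 3246 for ABA+DFPM against DFPM and 27 to 91 for the difference. Median centring moved the split of higher against lower calls to 2293 and 1179 for DFPM against control (1827 and 1636 without it), 1470 and 585 for ABA+DFPM against ABA (956 and 858), 1331 and 643 for ABA+DFPM against DFPM (1158 and 891) and 4234 and 2702 for ABA+DFPM against control (3172 and 3661), and ended the calls of PYK10 and BGLU42 in the last and of BGLU33 with DFPM alone (adjusted p = 0.0559). It split the difference into 27 and 23 (22 and 32).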
